A study of Homo sapiens with 48 samples.

Results

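HBL1 cells, a line of human diffuse large B cell lymphoma, were compared after 24 h in 5 µM NGI-1 and after 24 h in the vehicle, dimethyl sulfoxide (DMSO). The libraries were chosen by their labels alone: 2 libraries of NGI-1 and 2 of DMSO, which are 4 of the 48 RNA-seq libraries of the series. Set beside them were HBL1 cells given NGI-1 or DMSO for 3 h or 6 h, HBL1 cells given acalabrutinib (50 nM) or copanlisib (20 nM) for 24 h, and TMD8 cells, a second line of the same lymphoma, given NGI-1 or DMSO for 24 h, with 2 libraries in each group. Every group, the DMSO controls included, had the genotype label "Cas9 engineered", and the labels do not say whether a line was 1 clone. The labels give 2 treated samples per group and do not say that they were grown separately. The p-values rest on how far the 2 libraries of a group differ, estimated over all 24 groups in 1 fit. That spread may be only technical.

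NGI-1 is a small molecule that inhibits oligosaccharyltransferase, the complex in the membrane of the endoplasmic reticulum (ER) that moves a preassembled glycan onto asparagines of newly made secretory and membrane proteins. STT3A and STT3B are its alternative catalytic subunits. Proteins that lack these glycans can fail to fold, and the unfolded protein response answers misfolding through 3 sensors. ATF6, and IRE1 by splicing XBP1, raise ER chaperones and degradation factors, while PERK slows translation and acts through ATF4 and DDIT3 (CHOP). HBL1 and TMD8 belong to the activated B cell type of this lymphoma and carry activating mutations in CD79B, a chain of the B cell receptor, and in MYD88, the adaptor of Toll-like receptors, both of which drive NF-kB. The B cell receptor and Toll-like receptors are themselves N-glycoproteins. Acalabrutinib inhibits the kinase BTK and copanlisib inhibits phosphoinositide 3-kinase (PI3K), both downstream of the B cell receptor.

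The NGI-1 libraries held 9296195 and 8210976 reads in genes, against 10151954 and 8085282 in the DMSO libraries, within the range of 7165377 to 11999050 over the series. All 10 B cell markers examined passed the filter on low counts, 5 of them were higher with NGI-1 and none lower, and their summed level was 5998 and 5548 CPM (reads scaled to a common library size) in the NGI-1 libraries, against 4431 and 4054 CPM in the DMSO libraries. Of 11 T and NK cell markers, 6 had no read in any of the 4 libraries, among them CD3D, CD3E and CD3G, and the list summed to 48.2 and 44.7 CPM with NGI-1, against 37.6 and 35.2 CPM with DMSO, mostly CD247. The 11 myeloid markers summed to 3.71 to 5.06 CPM and the 12 stromal and epithelial markers to 14.3 to 21.6 CPM over the 4 libraries. Only 3 T and NK, 4 myeloid and 8 stromal and epithelial markers passed the filter on low counts, and none of these was called. A fit of HBL1 alone called 1 T and NK marker higher. Each of the 4 libraries correlated best with the other library of its own group.

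Of 13881 genes tested with edgeR's quasi-likelihood test, 1104 were higher with NGI-1 than with DMSO (7.95% of the genes tested) and 1589 were lower (11.4%), at an adjusted p under 0.05. Changes of at least 2-fold made up 231 of the higher genes (1.66% of those tested) and 93 of the lower genes (0.67%). The genes that rose included ER chaperones, the calnexin cycle, parts of the ER translocon, FOXO targets and components of the B cell receptor. Those that fell included NF-kB targets, immediate early genes, every gene examined of ribosome biogenesis, tRNA synthetases, replication genes, proteasome subunits and cytosolic heat shock proteins. The counts depended on single libraries: without the first DMSO library they were 596 higher and 757 lower, without the first NGI-1 library 702 and 1075, and without the second NGI-1 library 757 and 898. Of the counts of 1 to 3 members over the 40 lists described below, 25 of 33 moved by over 1.5 times when at least 1 library was left out. Fewer cells of a kind and less RNA per cell cannot be told apart in such bulk samples.

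Both NGI-1 libraries lay above both DMSO libraries in 27.3% of the genes tested and below both in 29.5%, so the position of 4 libraries alone says little about a gene. Every called gene whose level is given below for each library had both NGI-1 libraries on 1 side of both DMSO libraries. The same held for 1101 of all 1104 genes called higher and 1585 of all 1589 called lower. A statement below that groups did not overlap therefore adds little to a call.

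**Figure D1:**
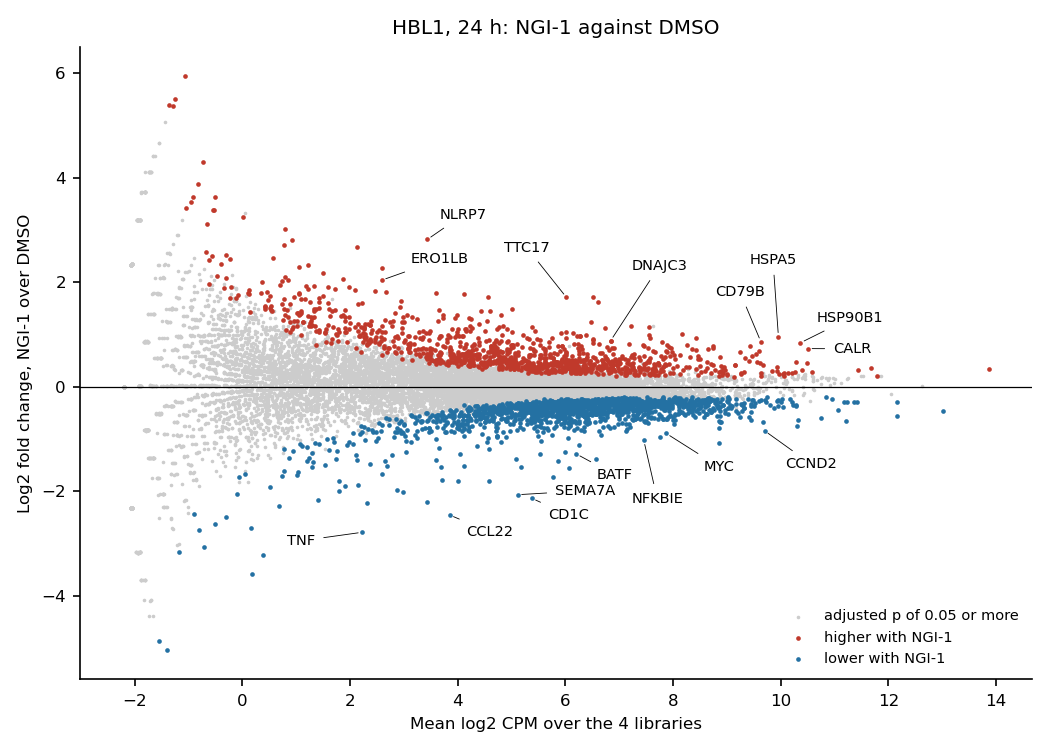
Log2 fold change (NGI-1 over DMSO, HBL1, 24 h) of every gene tested against its mean log2 CPM over the 4 libraries, with genes at an adjusted p under 0.05 in colour (higher in red, lower in blue) and named genes labelled. TNF lies at -2.79 and NLRP7 at 2.82; the fold changes of genes with few reads, at the left edge, depend on the prior count of the fit.

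ER chaperones rose: 13 of the 20 tested were higher and none was lower, with a median log2 fold change of 0.48, against 0.00 over all genes tested. Some genes belong to more than 1 of the lists used here, so the counts of different lists overlap. HSPA5 (BiP), the chaperone that holds unfolded proteins in the ER and keeps the sensors inactive, stood at 1402 and 1367 CPM in the NGI-1 libraries, against 723 and 704 CPM in the DMSO libraries. Both NGI-1 libraries lay far above both DMSO libraries, a 1.94-fold rise (log2 fold change 0.96 ± 0.14, adjusted p = 2e-06, where ± gives the standard error). LOC400750, the pseudogene HSPA5P1, was called with it (1.35 ± 0.42, adjusted p = 0.018), but reads shared with HSPA5 make this value uncertain, and the call was lost in a fit of HBL1 alone (adjusted p = 0.055), without either DMSO library (0.076 and 0.11) or the second NGI-1 library (0.16). HSP90B1 (GRP94), the ER member of the HSP90 family and the chaperone of Toll-like receptors, had 1713 and 1819 CPM with NGI-1, against 926 and 1049 CPM with DMSO. Its groups did not overlap, and the rise was 1.79-fold (0.84 ± 0.11, adjusted p = 5.1e-07). CALR (calreticulin), which binds monoglucosylated glycans, reached 1974 and 1773 CPM with NGI-1, against 1181 and 1081 CPM with DMSO (0.73 ± 0.09, adjusted p = 1.5e-07), and again both NGI-1 libraries were the higher ones.

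Further members of the list rose by different amounts. DNAJC3, which binds unfolded proteins together with BiP, was at 157 and 153 CPM with NGI-1, against 81.95 and 86.9 CPM with DMSO (0.88 ± 0.18, adjusted p = 0.00029). SDF2L1, a partner of the BiP cycle, had 43.3 and 40.4 CPM with NGI-1, against 26.1 and 22.1 CPM with DMSO (0.79 ± 0.16, adjusted p = 0.00024). CRELD2, a stress-induced ER protein, was measured at 75.99 and 75.8 CPM with NGI-1, against 43.4 and 44.9 CPM with DMSO (0.78 ± 0.11, adjusted p = 1.4e-06). For each of these 3 genes the libraries of the groups were apart, and the DMSO pairs differed among themselves by far less than the groups did. CANX (calnexin), the membrane-bound counterpart of CALR, changed less (0.32 ± 0.09, adjusted p = 0.006) and missed the threshold without the second DMSO library (adjusted p = 0.087) or the first NGI-1 library (0.11). SERP1, which guards proteins during translocation, gave 351 and 361 CPM with NGI-1, against 358 and 348 CPM with DMSO, and was not called (0.01 ± 0.10, adjusted p = 0.97).

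Promoters of these genes are shown because ER stress elements sit in some and not in others. The ERSE, the element that ATF6 binds together with the general factor NF-Y, was searched on both strands as CCAAT, 9 bases of any kind and CCACG, and ERSE-II as ATTGG, 1 base of any kind and CCACG, in the 250 bases before each start and the 50 bases after it in RefSeq's promoter table (GRCh38.p14). ERSE letters occurred in 22 of all 27305 promoters (0.0806%), in 15 of the 10375 promoters that matched a tested gene (0.145%) and in 6 of 19 promoters of ER chaperones (31.6%). They were in 10 of the 845 matched promoters of genes called higher (1.18%) and in none of the 1341 of genes called lower. Of these 15 tested genes, 10 rose with NGI-1 (ALG12, CALR, CANX, CRELD2, ERO1LB, FICD, HSP90B1, HSPA5, TRIM5 and XBP1), 5 were not called (EIF2A, NLRP4, SERP1, TMEM120A and ZNF17) and none fell. ERSE-II letters occurred in 15 promoters (0.0549%) and in 9 of tested genes, of which HYOU1, NUCB1 and SDF2L1 rose and 6 were not called. Besides CANX, the calls of ALG12 (adjusted p = 0.049) and FICD (0.017) did not hold without single libraries: ALG12 reached 0.41 without the first DMSO library, and FICD reached 0.093 without the second. ALG12 also missed the threshold with DESeq2 (0.058), with no filter (0.07) and in a fit of HBL1 alone (0.063). The 250 bases upstream of 5 of these genes, 5′ to 3′ on the gene's strand, follow with the fixed letters of each element in capitals (a CGTGG before ATTGG or CCAAT is the same element on the other strand).
HSPA5 (chr9:125241344-125241593, minus strand): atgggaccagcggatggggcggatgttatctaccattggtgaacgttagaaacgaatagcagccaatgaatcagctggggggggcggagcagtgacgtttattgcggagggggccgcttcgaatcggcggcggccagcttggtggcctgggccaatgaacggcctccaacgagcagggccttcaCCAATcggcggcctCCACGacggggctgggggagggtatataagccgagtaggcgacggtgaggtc
HSP90B1 (chr12:103930160-103930409, plus strand): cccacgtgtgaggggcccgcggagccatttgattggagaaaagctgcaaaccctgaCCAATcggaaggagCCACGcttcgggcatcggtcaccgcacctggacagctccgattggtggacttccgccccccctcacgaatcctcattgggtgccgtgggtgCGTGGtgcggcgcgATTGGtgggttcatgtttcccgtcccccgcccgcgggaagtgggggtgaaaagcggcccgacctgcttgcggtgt
ERO1LB (chr1:236281959-236282208, minus strand): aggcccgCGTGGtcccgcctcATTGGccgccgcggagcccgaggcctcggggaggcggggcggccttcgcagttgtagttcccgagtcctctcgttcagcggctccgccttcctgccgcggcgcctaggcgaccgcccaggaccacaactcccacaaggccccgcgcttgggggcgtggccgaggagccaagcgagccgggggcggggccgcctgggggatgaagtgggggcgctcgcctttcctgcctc
HYOU1 (chr11:119057206-119057455, minus strand): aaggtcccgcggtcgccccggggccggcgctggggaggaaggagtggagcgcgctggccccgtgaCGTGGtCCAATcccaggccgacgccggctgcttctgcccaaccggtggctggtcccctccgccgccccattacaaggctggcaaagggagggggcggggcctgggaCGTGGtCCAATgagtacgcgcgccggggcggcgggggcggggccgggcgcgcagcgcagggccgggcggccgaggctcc
SERP1 (chr3:150546497-150546746, minus strand): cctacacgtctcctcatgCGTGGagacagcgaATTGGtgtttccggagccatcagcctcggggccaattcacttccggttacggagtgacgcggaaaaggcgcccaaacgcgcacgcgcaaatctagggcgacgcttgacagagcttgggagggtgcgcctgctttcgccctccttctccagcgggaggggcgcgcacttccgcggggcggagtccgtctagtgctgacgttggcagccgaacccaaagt
HSPA5 holds its ERSE 66 to 48 bases before the start, HSP90B1 holds 2 ERSEs in opposite orientation, and HYOU1 holds 2 ERSE-II elements. SERP1, whose level was flat at 24 h, holds its ERSE 232 to 214 bases before the start. ERO1LB, which rose, holds its ERSE 243 to 225 bases before the start. These matches are letters in a window, with no measurement of a factor bound there. Neither element was found for DNAJC3 (log2 fold change 0.88), PDIA4 (0.79) and SYVN1 (0.60), among other ER genes that rose.

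Of 16 disulfide isomerases and oxidases, 4 rose and 1 fell, with a median of 0.11. ERO1LB (ERO1B), the oxidase that recharges the disulfide isomerases, had 11.6 and 11.8 CPM with NGI-1, against 2.79 and 2.88 CPM with DMSO. Its libraries of a group were nearly equal and the rise was 4.11-fold (2.04 ± 0.33, adjusted p = 1.3e-05). PDIA4, another disulfide isomerase, stood at 315 and 311 CPM with NGI-1, against 183 and 178 CPM with DMSO (0.79 ± 0.12, adjusted p = 8.3e-06). PDIA3, which works beside CALR and CANX, was at 309 and 296 CPM with NGI-1, against 211 and 191 CPM with DMSO (0.59 ± 0.10, adjusted p = 3.1e-05). PDIA2, a rarer isomerase, had 7.05 and 13.3 CPM with NGI-1, against 2.29 and 3.48 CPM with DMSO (1.82 ± 0.39, adjusted p = 0.00068), and missed the threshold without the second NGI-1 library (adjusted p = 0.059). PRDX4, an ER peroxiredoxin, was the 1 member that was lower (-0.40 ± 0.13, adjusted p = 0.025), and this call was lost without the first DMSO library (adjusted p = 0.12), the second DMSO library (0.073) or the first NGI-1 library (0.24). ERO1L and PDIA6 were not called (-0.24 ± 0.10 and 0.09 ± 0.07 on the log2 scale). P4HB, the founding isomerase, missed the threshold (0.28 ± 0.11, adjusted p = 0.059) but was called with DESeq2 (0.034), RLE size factors (0.044), no filter (0.0094) or a stricter filter (0.028).

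Of 22 genes of ER-associated degradation, 6 rose and none fell, with a median of 0.27, with 2 higher without the first DMSO library and 3 higher without the second NGI-1 library or in a fit of HBL1 alone. DERL3, a channel component of retrotranslocation and a target of XBP1, had 38.9 and 45.9 CPM with NGI-1, against 16.7 and 21.4 CPM with DMSO (1.16 ± 0.22, adjusted p = 0.00013). The lower of its NGI-1 libraries was still well above the higher of its DMSO libraries. SYVN1 (HRD1), the ubiquitin ligase of the same channel, was at 258 and 283 CPM with NGI-1, against 162 and 197 CPM with DMSO (0.60 ± 0.14, adjusted p = 0.002), with an adjusted p of 0.092 without the first DMSO library. OS9, the lectin that recognises trimmed glycans, rose by less (0.33 ± 0.08, adjusted p = 0.0021). EDEM1 and HERPUD1, both commonly raised under ER stress, were not called (-0.04 ± 0.13 and 0.36 ± 0.15), except HERPUD1 with no filter (adjusted p = 0.00033).

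Of 12 subunits of oligosaccharyltransferase, the complex that NGI-1 inhibits, 3 rose and none fell, with a median of 0.15, with none called without the first DMSO library and 1 without either NGI-1 library. STT3B had 165 and 171 CPM with NGI-1, against 142 and 142 CPM with DMSO (0.24 ± 0.08, adjusted p = 0.027), and its call was lost with no filter on low counts (adjusted p = 0.059) or when any 1 of the 4 libraries was left out (0.064 to 0.16). MAGT1, the oxidoreductase subunit of STT3B complexes, was measured at 149.8 and 149 CPM with NGI-1, against 116 and 121 CPM with DMSO (0.34 ± 0.10, adjusted p = 0.0086). OSTC, a subunit of STT3A complexes, was at 125 and 141 CPM with NGI-1, against 89.02 and 103 CPM with DMSO (0.47 ± 0.11, adjusted p = 0.0019). Both lost their call without the first DMSO library (adjusted p = 0.098 for MAGT1 and 0.086 for OSTC), MAGT1 just missed it without the first NGI-1 library (adjusted p = 0.05), and OSTC lost it without the second (0.055). STT3A, at 135 and 124 CPM with NGI-1 against 112 and 114 CPM with DMSO, was not called (0.20 ± 0.10, adjusted p = 0.14).

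Upstream of it, 2 of 32 genes of N-glycan precursor synthesis rose and 2 fell (median 0.02), and none rose without the first DMSO library or either NGI-1 library. GNPNAT1, which makes N-acetylglucosamine 6-phosphate, fell (-0.63 ± 0.09, adjusted p = 4e-06). Downstream, in a list of 18 genes of Golgi glycan processing that also held the lysosomal sialidase NEU1, 1 rose and 2 fell (median 0.02). B4GALT1, a galactosyltransferase, was higher (0.52 ± 0.09, adjusted p = 3.6e-05), and 1 of the 2 lower genes was NEU1 itself (-0.59 ± 0.11, adjusted p = 8.6e-05). Over all genes tested 7.95% were higher and 11.4% lower. The counts of the precursor and the Golgi list are near or below those shares. In the calnexin cycle, which reads the glucose left on the glycan, 5 of 9 genes rose and none fell, with 3 higher without the second DMSO or the first NGI-1 library. Among the 5 are CALR, CANX and PDIA3, which are also counted in the lists above. PRKCSH, the beta subunit of glucosidase II, had 529 and 499 CPM with NGI-1, against 314 and 311 CPM with DMSO (0.72 ± 0.08, adjusted p = 1e-08). GANAB, the catalytic subunit of that enzyme, was not called (-0.05 ± 0.08), nor were the folding sensors UGGT1 and UGGT2, listed in the files as UGCGL1 and UGCGL2 (0.13 ± 0.10 and -0.20 ± 0.15).

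At the entrance to the ER, 10 of 25 translocon and targeting genes rose and none fell, but 4 were called when any 1 of the 4 libraries was left out. TRAM1, a membrane protein beside the translocation channel, stood at 296 and 302 CPM with NGI-1, against 166 and 165 CPM with DMSO (0.85 ± 0.10, adjusted p = 9.7e-08). TRAM2 moved alike (0.80 ± 0.11, adjusted p = 9.3e-07), and SPCS3, a signal peptidase subunit, by less (0.44 ± 0.07, adjusted p = 3.1e-05). These 3 were called under every alternative. SEC61A1, the channel itself, missed the threshold (0.27 ± 0.10, adjusted p = 0.05) but was called with DESeq2 (0.028), RLE size factors (0.037), no filter (0.0097), a stricter filter (0.023) or a robust spread estimate (0.044). Vesicle coats between ER and Golgi gave 2 of 27 genes higher, a share near the 7.95% of all genes tested, and none lower. Both calls depended on single libraries.

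**Figure D2:**
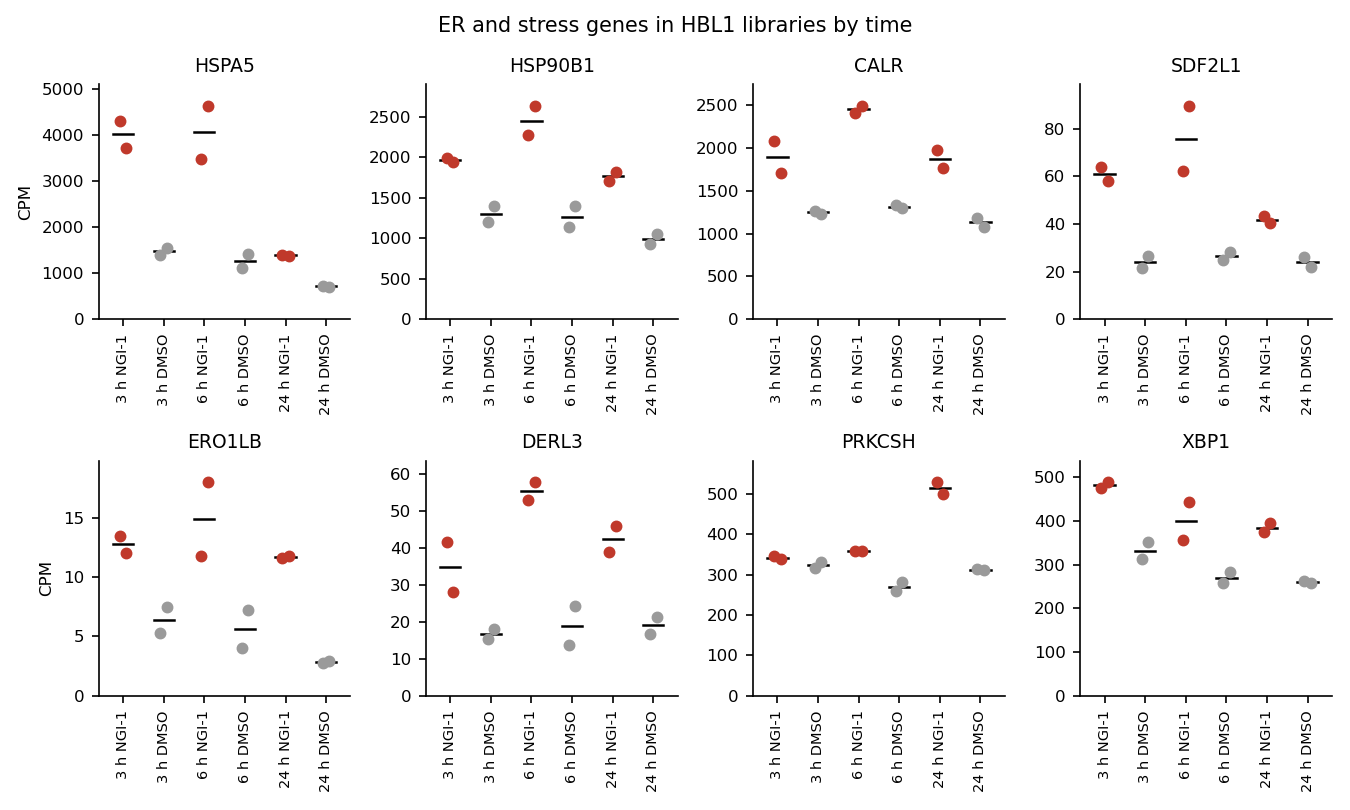
CPM of 8 ER and stress genes in each HBL1 library at 3, 6 and 24 h, with NGI-1 (red) left of DMSO (grey) and a bar at the mean of each pair. At 24 h both NGI-1 libraries lie above both DMSO libraries for all 8 genes, among them HSPA5 at 1402 and 1367 CPM with NGI-1 against 723 and 704 CPM with DMSO.

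Of 17 sensors and factors of the response itself, 5 rose and 1 fell, with a median of 0.11, and 3 rose without the second NGI-1 library. XBP1 had 375 and 395 CPM with NGI-1, against 263 and 258 CPM with DMSO (0.56 ± 0.12, adjusted p = 0.0005), and gene counts do not separate its spliced form. CREB3L2, an ER-bound factor of the ATF6 kind, rose as well (0.55 ± 0.10, adjusted p = 4.3e-05). DDIT3 (CHOP) had 14.7 and 13.4 CPM with NGI-1, against 5.48 and 9.37 CPM with DMSO (0.95 ± 0.33, adjusted p = 0.037). Its DMSO libraries were unequal, and the call was lost in a fit of HBL1 alone (adjusted p = 0.1), with a robust spread estimate (0.088), and without the first DMSO library (adjusted p = 0.41), the first NGI-1 library (0.16) or the second (0.087). The sensors ERN1 (IRE1), EIF2AK3 (PERK) and ATF6 were not called (-0.07 ± 0.23, 0.25 ± 0.14 and -0.21 ± 0.09).

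Among targets of ATF4 more genes fell than rose. ATF4 itself was at 278 and 281 CPM with NGI-1, against 353 and 335 CPM with DMSO, with both NGI-1 libraries the lower ones (-0.30 ± 0.14, adjusted p = 0.13), which was called only with no filter (adjusted p = 0.021) among the settings without a replicate block. Of 29 targets of ATF4 and CHOP, 3 rose and 11 fell (median -0.37), with 4 lower without the first DMSO library, 6 lower without the second NGI-1 library and 1 higher without the second DMSO library. ASNS, asparagine synthetase, had 119.6 and 108 CPM with NGI-1, against 214 and 172 CPM with DMSO (-0.76 ± 0.15, adjusted p = 0.00023). PYCR1, an enzyme of proline synthesis, fell similarly (-0.71 ± 0.12, adjusted p = 1.8e-05). DDIT4, an inhibitor of mTOR signalling, rose at low levels, with 5.58 and 5.78 CPM with NGI-1 against 2.69 and 1.56 CPM with DMSO (1.38 ± 0.34, adjusted p = 0.0032; adjusted p = 0.06 without the second DMSO library). Of 20 cytosolic tRNA synthetases, many of which ATF4 can raise, 16 fell and none rose (median -0.39). YARS was among the clearest, with 194 and 186 CPM with NGI-1 against 316 and 269 CPM with DMSO (-0.62 ± 0.10, adjusted p = 1.5e-05).

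**Figure D3:**
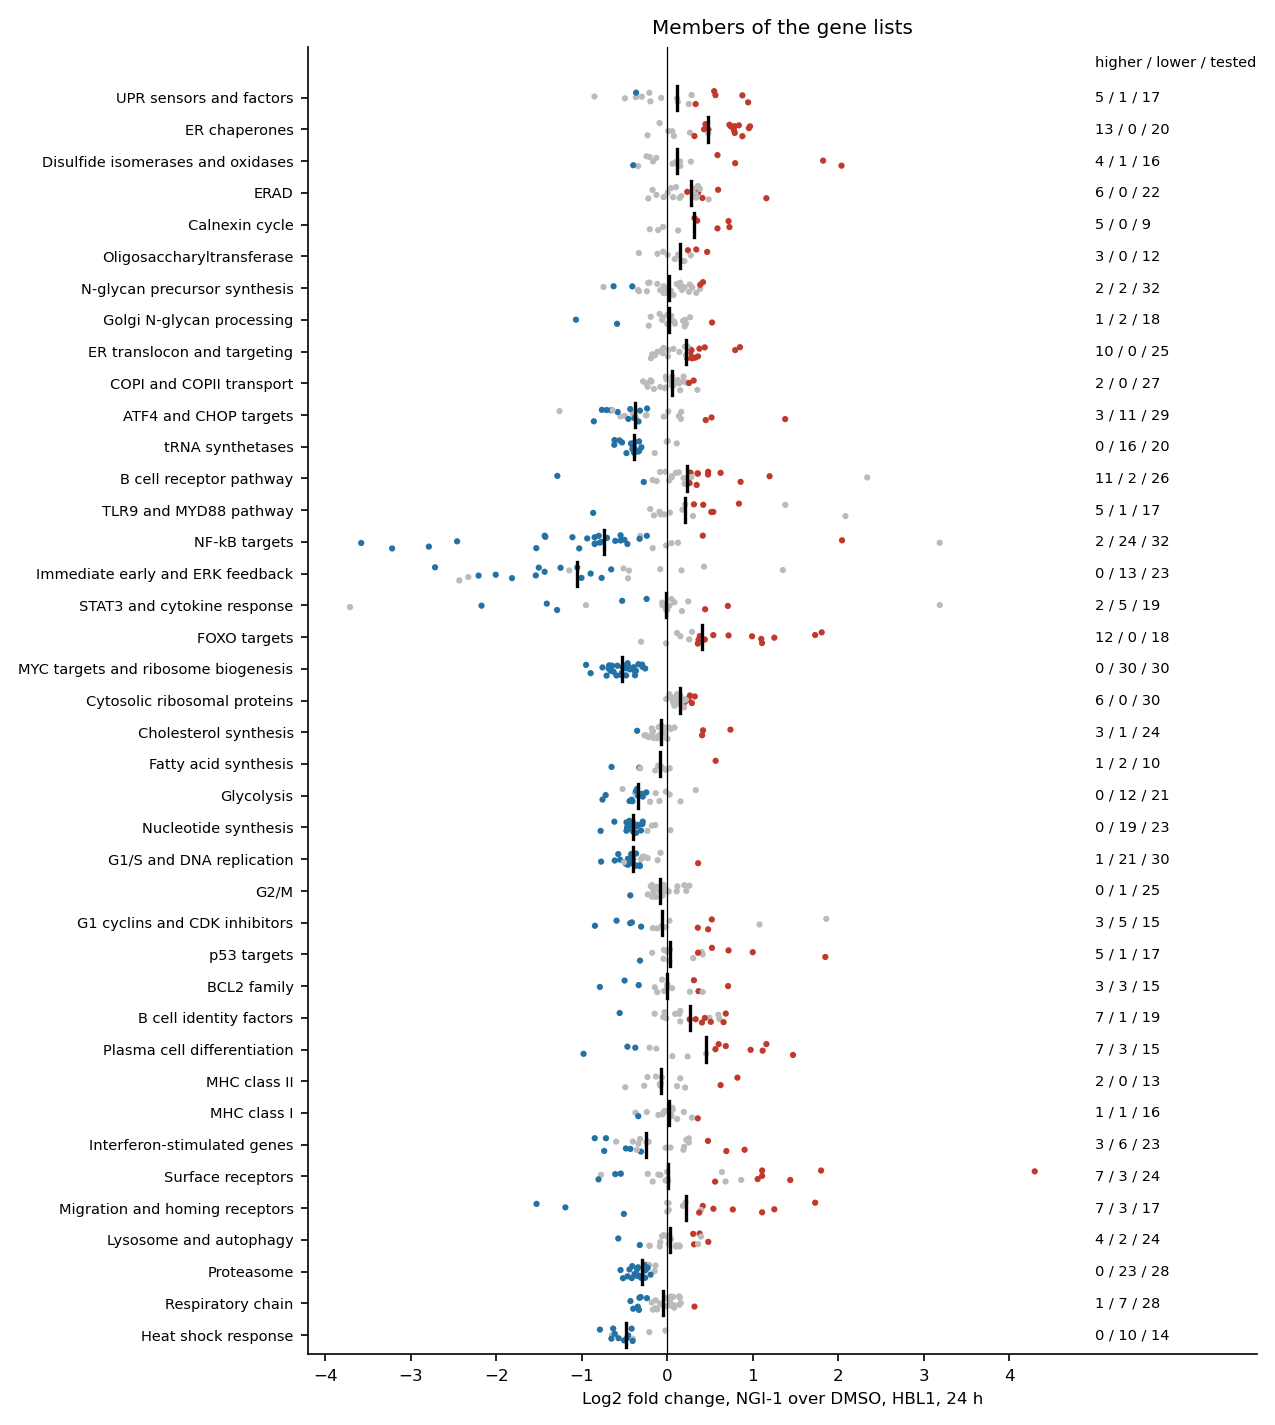
Log2 fold change (NGI-1 over DMSO, HBL1, 24 h) of every tested member of 40 gene lists, 1 row a list, with called members in colour, other members in grey and a black bar at the median of the list; the numbers at the right give members higher, lower and tested. ER chaperones lie to the right of 0 with 13 of 20 called higher. MYC targets and ribosome biogenesis, 1 list, lie to the left with 30 of 30 called lower.

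NF-kB targets fell as a group: 24 of 32 were lower and 2 were higher, with a median of -0.74. TNF, the cytokine, had 1.58 and 1.73 CPM with NGI-1, against 11.2 and 11.9 CPM with DMSO. The pairs were tight and the fall was 6.91-fold (-2.79 ± 0.32, adjusted p = 2.4e-08). CCL22, a chemokine for CCR4, was at 5.16 and 7.05 CPM with NGI-1, against 37.1 and 29.4 CPM with DMSO (-2.46 ± 0.37, adjusted p = 4e-06). CCL3 and CCL4 fell to very few reads, with 4 reads over both NGI-1 libraries against 51 over both DMSO libraries for CCL3 (-3.58 ± 0.81, adjusted p = 0.0013) and 6 against 59 for CCL4 (-3.22 ± 0.64, adjusted p = 0.00029). Near-identical copies of both chemokine genes exist, so their reads may be split. EBI3, a subunit of interleukins 27 and 35, fell to 20.1 and 22.2 CPM with NGI-1, against 65.6 and 56.4 CPM with DMSO (-1.53 ± 0.17, adjusted p = 1e-08).

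The feedback inhibitors of the pathway were lower too. NFKBIA (IκBα) had 54.5 and 49.7 CPM with NGI-1, against 117 and 108 CPM with DMSO (-1.11 ± 0.14, adjusted p = 3.9e-07), and NFKBIE had 129.8 and 116 CPM with NGI-1, against 258 and 244 CPM with DMSO (-1.03 ± 0.11, adjusted p = 6.4e-09). For both, every NGI-1 library was below every DMSO library. BCL2A1, a survival protein of the BCL2 family, fell by less (-0.79 ± 0.15, adjusted p = 0.00011), and CD40, a costimulatory receptor, likewise (-0.61 ± 0.12, adjusted p = 0.00016). IRF4, the factor on which this lymphoma depends, was at 591 and 474 CPM with NGI-1, against 785 and 684 CPM with DMSO (-0.47 ± 0.12, adjusted p = 0.005). Its call was lost without the first DMSO library (adjusted p = 0.12) or the second NGI-1 library (0.17). The subunit genes NFKB1, REL and RELB were not called (-0.17 ± 0.14, -0.01 ± 0.15 and -0.32 ± 0.12). LTB (lymphotoxin beta) went the other way, with 3.79 and 2.54 CPM with NGI-1 against 0.797 and 0.721 CPM with DMSO (2.05 ± 0.43, adjusted p = 0.00058). So did the homing receptor CCR7 (0.42 ± 0.13, adjusted p = 0.015), whose call was lost without the second DMSO library (adjusted p = 0.25) or the first NGI-1 library (0.32).

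Immediate early genes and feedback genes of the ERK pathway, which follow receptor signalling within minutes, gave 13 of 23 lower and none higher (median -1.05), with 7 lower without the first DMSO or the second NGI-1 library and 8 without the first NGI-1 library. DUSP2, a nuclear phosphatase of MAP kinases, had 8.42 and 8.44 CPM with NGI-1, against 28.2 and 31.4 CPM with DMSO (-1.82 ± 0.18, adjusted p = 1e-09), and was called under every alternative. EGR1 was at 3.05 and 7.17 CPM with NGI-1, against 22.2 and 24.5 CPM with DMSO (-2.21 ± 0.54, adjusted p = 0.0027). Its NGI-1 libraries differed from each other by more than its DMSO libraries did, and the call was lost without the first of them (adjusted p = 0.08). EGR2 kept 7 reads over both NGI-1 libraries, against 48 over both DMSO libraries (-2.72 ± 0.66, adjusted p = 0.0026), and NR4A3 had 1.58 and 1.62 CPM with NGI-1, against 7.07 and 5.77 CPM with DMSO (-2.01 ± 0.58, adjusted p = 0.011). These calls were lost without the first DMSO library (adjusted p = 0.052 for EGR2 and 0.1 for NR4A3) and the second NGI-1 library (0.078 and 0.068), and that of NR4A3 also without the first NGI-1 library (0.078).

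Of 19 genes of the STAT3 and cytokine list, 5 were lower and 2 were higher (median -0.01). Fewer members were lower when the first NGI-1 library was left out, so the count of lower members depends on that library. IL10 had 0.631 and 1.73 CPM with NGI-1, against 5.58 and 4.93 CPM with DMSO (-2.17 ± 0.49, adjusted p = 0.0013; adjusted p = 0.06 without the first NGI-1 library). BATF, an AP-1 factor that binds beside IRF4, stood at 48.7 and 45.3 CPM with NGI-1, against 123 and 107 CPM with DMSO (-1.29 ± 0.11, adjusted p = 9.4e-12). STAT3 itself was at 152 and 155 CPM with NGI-1, against 224 and 219.8 CPM with DMSO (-0.53 ± 0.09, adjusted p = 4e-05). IL10RA, a receptor chain for IL10, rose instead (0.71 ± 0.09, adjusted p = 2.8e-07).

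Of 26 genes of the B cell receptor pathway, 11 rose and 2 fell (median 0.23), with 6 higher without the second DMSO or the first NGI-1 library. CD79B, the signalling chain mutated in this line, had 1054 and 1082 CPM with NGI-1, against 597 and 580.4 CPM with DMSO. The pairs agreed within a few percent and the rise was 1.81-fold (0.86 ± 0.07, adjusted p = 1.6e-11). CD79A, its partner, was at 997 and 857 CPM with NGI-1, against 636 and 567 CPM with DMSO (0.62 ± 0.13, adjusted p = 0.00032), and PLCG2, the phospholipase below BTK, rose as well (0.48 ± 0.07, adjusted p = 3e-06). PTPN6 (SHP-1), the phosphatase that damps the receptor, fell to 28.7 and 30.1 CPM with NGI-1, against 79.4 and 63.6 CPM with DMSO (-1.29 ± 0.14, adjusted p = 1e-08).

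The Toll-like receptor list gave 5 of 17 higher and 1 lower, with 3 higher without the first NGI-1 library. TLR9, the DNA receptor that signals through MYD88, had 133 and 128 CPM with NGI-1, against 89.6 and 90.2 CPM with DMSO (0.54 ± 0.09, adjusted p = 3.1e-05), and UNC93B1, which carries it to endosomes, rose as well (0.52 ± 0.11, adjusted p = 0.00055). MYD88 was not called (-0.15 ± 0.10). CD180, a Toll-like surface receptor, was the 1 lower member (-0.87 ± 0.25, adjusted p = 0.01), and its call was lost without the first DMSO library (adjusted p = 0.085) or the second NGI-1 library (0.15).

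FOXO targets, which rise when PI3K and AKT signalling is low, gave 12 of 18 higher and none lower, with a median of 0.41 and 6 higher without the first NGI-1 library. CCNG2, an atypical cyclin of quiescent cells, had 10.2 and 12.8 CPM with NGI-1, against 2.99 and 3.60 CPM with DMSO (1.81 ± 0.24, adjusted p = 4.9e-07). KLHL24 was at 24.7 and 27.2 CPM with NGI-1, against 11.2 and 12.98 CPM with DMSO (1.11 ± 0.16, adjusted p = 1.7e-06). TXNIP, which restrains glucose uptake, was at 43.4 and 36.7 CPM with NGI-1, against 22.8 and 17.2 CPM with DMSO (0.99 ± 0.16, adjusted p = 1.5e-05). S1PR1, the receptor for egress from lymphoid tissue, rose at low levels, with 4.53 and 4.97 CPM with NGI-1 against 0.996 and 1.92 CPM with DMSO (1.73 ± 0.29, adjusted p = 2.6e-05). In all 4 the groups did not overlap.

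Of 19 transcription factors of B cell identity, 7 rose and 1 fell, with 4 higher without the first NGI-1 library. POU2AF1 (OBF-1), the B cell coactivator, rose (0.69 ± 0.09, adjusted p = 1.6e-07), and so did ETS1 (0.66 ± 0.11, adjusted p = 1.3e-05) and IRF8 (0.41 ± 0.09, adjusted p = 0.0011). POU2F2 (OCT-2), which POU2AF1 binds, fell (-0.56 ± 0.09, adjusted p = 2.7e-05). BCL6, the repressor of germinal centre B cells, was at 217 and 193 CPM with NGI-1, against 145 and 158 CPM with DMSO (0.44 ± 0.11, adjusted p = 0.0043). It lost its call without the first DMSO library (adjusted p = 0.088) or the first NGI-1 library (0.086). Of 15 genes of plasma cell differentiation, 7 rose and 3 fell. XBP1, DERL3 and POU2AF1 among the higher members and IRF4 among the lower ones are also counted in other lists. CD38 had 26.5 and 29.6 CPM with NGI-1, against 12.5 and 13.3 CPM with DMSO (1.12 ± 0.22, adjusted p = 0.00019). ELL2, the elongation factor used for secreted immunoglobulin, fell to 44.3 and 49.6 CPM with NGI-1, against 90.3 and 94.7 CPM with DMSO (-0.98 ± 0.18, adjusted p = 0.00011). PRDM1 (BLIMP-1), the master factor of that fate, was not called (0.24 ± 0.18).

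Among surface molecules, 7 of 24 activation and inhibitory receptors rose and 3 fell. PECAM1, an inhibitory adhesion receptor, had 23.9 and 20.4 CPM with NGI-1, against 6.87 and 5.77 CPM with DMSO (1.8 ± 0.22, adjusted p = 1e-07). CD52, a small glycoprotein anchored to the surface, had 37.5 and 33.3 CPM with NGI-1, against 13.4 and 12.6 CPM with DMSO (1.44 ± 0.23, adjusted p = 1.3e-05). FCGR2B, the inhibitory Fc receptor, rose too (1.11 ± 0.16, adjusted p = 1.7e-06). Of 17 migration and homing receptors 7 rose and 3 fell, with 3 higher without the first NGI-1 library. CXCR4, the receptor for CXCL12, stood at 35.4 and 41.7 CPM with NGI-1, against 16.03 and 19.8 CPM with DMSO (1.11 ± 0.14, adjusted p = 2.3e-07). RGS1, which damps such receptors, fell to 3.16 and 4.16 CPM with NGI-1, against 9.96 and 11.2 CPM with DMSO (-1.53 ± 0.34, adjusted p = 0.0011). MHC class II gave 2 of 13 genes higher, HLA-DMA (0.62 ± 0.12, adjusted p = 0.00018) and HLA-DMB (0.82 ± 0.14, adjusted p = 2.6e-05), which load peptides, and class I gave 1 of 16 higher and 1 lower.

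All 30 genes tested of MYC targets and ribosome biogenesis fell, with a median of -0.53. MYC had 190.1 and 155 CPM with NGI-1, against 338 and 303 CPM with DMSO (-0.90 ± 0.14, adjusted p = 7.3e-06). PES1 and NOP56, factors of ribosome assembly, fell alike (-0.65 ± 0.09 and -0.52 ± 0.07), and so did ODC1, the first enzyme of polyamine synthesis (-0.68 ± 0.08, adjusted p = 2.8e-08). Of 30 mRNAs of cytosolic ribosomal proteins, 6 were higher and none was lower (median 0.14). That count was 1 without the second DMSO library, 3 without the first NGI-1 library, 10 with DESeq2 and 11 with a stricter filter on low counts, so the share of these genes called depends on the setting.

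Of 30 genes of the G1/S transition and replication, 21 fell and 1 rose (median -0.40), with 9 lower without the first DMSO or the first NGI-1 library and 10 without the second NGI-1 library. CCNE1 (cyclin E1) had 25.4 and 29.1 CPM with NGI-1, against 49.3 and 43.6 CPM with DMSO (-0.77 ± 0.13, adjusted p = 4.1e-05). CCND2 (cyclin D2) was at 565 and 681 CPM with NGI-1, against 1062 and 1175 CPM with DMSO (-0.85 ± 0.13, adjusted p = 5.2e-06), and its partner CDK4 fell as well (-0.59 ± 0.10, adjusted p = 5.5e-05). Of 15 genes of G1 cyclins, their kinases and inhibitors and RB proteins 3 rose and 5 fell (median -0.06), with 2 or 3 lower when any 1 library was left out. Of 25 mitosis genes 1 was lower, CCNA2 (-0.43 ± 0.10, adjusted p = 0.0013; adjusted p = 0.08 without the first DMSO library), and MKI67, the proliferation marker, was not called (-0.01 ± 0.14). Whether these lists differ was not tested.

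In 4 further lists members were called lower and none higher. Of 23 genes of nucleotide synthesis 19 were lower (median -0.40), among them CTPS, CTP synthase (-0.62 ± 0.08, adjusted p = 3.7e-07), and of 21 glycolysis genes 12 were lower (median -0.34, 6 without the first DMSO library). LDHA, lactate dehydrogenase, had 984 and 962 CPM with NGI-1, against 1698 and 1592 CPM with DMSO (-0.76 ± 0.10, adjusted p = 2.3e-07). HK2, hexokinase, had 111 and 106 CPM with NGI-1, against 196 and 161 CPM with DMSO (-0.72 ± 0.11, adjusted p = 8.9e-06). Of 28 proteasome genes 23 were lower and none higher (median -0.30), with 11 lower without the first DMSO library, 15 without the first NGI-1 library and 13 without the second. PSMA6, a subunit of the core particle, had 127 and 139 CPM with NGI-1, against 193 and 196 CPM with DMSO (-0.55 ± 0.11, adjusted p = 0.0002). Of 14 heat shock genes outside the ER 10 were lower and none higher (median -0.49): HSP90AA1, the inducible cytosolic relative of HSP90B1, fell (-0.65 ± 0.09, adjusted p = 1.1e-06) and so did HSPD1, the mitochondrial chaperonin (-0.63 ± 0.07, adjusted p = 3.8e-08).

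The remaining lists were cholesterol synthesis (3 of 24 higher, 1 lower), fatty acid synthesis (1 of 10 higher, 2 lower), p53 targets (5 of 17 higher, 1 lower), the BCL2 family (3 of 15 higher, 3 lower), lysosome and autophagy genes (4 of 24 higher, 2 lower) and the respiratory chain (1 of 28 higher, 7 lower, with 2 lower without the first DMSO library). The count of lysosome and autophagy genes that were higher was 1 or 2 when any 1 of the 4 libraries was left out. FASN, fatty acid synthase, fell (-0.65 ± 0.11, adjusted p = 2.7e-05). BTG2, an antiproliferative p53 target, had 391 and 417 CPM with NGI-1, against 195 and 209 CPM with DMSO (1.0 ± 0.08, adjusted p = 1e-12), whereas CDKN1A (p21) was not called (0.03 ± 0.27). BMF, a BH3-only death factor, rose (0.71 ± 0.11, adjusted p = 1.2e-05), BID fell (-0.50 ± 0.08, adjusted p = 1.1e-05) and MCL1 was not called (0.00 ± 0.07).

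The largest changes among genes with a mean log2 CPM of 1 or more lay partly outside these lists. NLRP7, of the NOD-like receptor family, had 31.5 and 24.6 CPM with NGI-1, against 4.08 and 3.85 CPM with DMSO, a 7.05-fold rise (2.82 ± 0.25, adjusted p = 4.6e-11). SUSD3, a membrane protein with a sushi domain, had 11.8 and 13.9 CPM with NGI-1, against 1.99 and 3.36 CPM with DMSO (2.28 ± 0.26, adjusted p = 3.7e-08). The other 10 of the 12 top genes, all with log2 fold changes of 1.90 to 2.68 and at most 12.6 CPM in any of the 4 libraries, were DKFZp451A211, SLC43A2 (an amino acid transporter), FXYD6, LMF1 (an ER factor for lipase maturation), SLC23A1 (a vitamin C transporter), ERO1LB, DNAL4, C19orf38, FER1L4 and LOC283710. TTC17, a tetratricopeptide repeat protein, was a more abundant gene with a large rise, at 119 and 114 CPM with NGI-1 against 35.5 and 35.9 CPM with DMSO (1.71 ± 0.10, adjusted p = 2.3e-16).

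Among the 12 that fell most with a mean log2 CPM of 1 or more were TNF, CCL22, IL10, EGR1 and NR4A3 from the lists above. CD1C, which presents lipid antigens, had 19.2 and 20.2 CPM with NGI-1, against 89.5 and 83.8 CPM with DMSO, a 4.4-fold fall (-2.14 ± 0.16, adjusted p = 1.3e-12). SEMA7A, a membrane semaphorin, had 17.7 and 16.1 CPM with NGI-1, against 82.2 and 59.2 CPM with DMSO (-2.07 ± 0.16, adjusted p = 1e-12). PTGER4, the EP4 receptor for prostaglandin E2, had 2.21 and 2.20 CPM with NGI-1, against 12.3 and 8.17 CPM with DMSO (-2.23 ± 0.30, adjusted p = 8.6e-07). The others were LRRC32 (GARP, which docks latent TGF-beta), GALNT6 (which starts O-linked glycans), COL8A2 and DGKI, with log2 fold changes of -2.02, -1.98, -1.9 and -1.88.

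Calls were few at the earlier times, and ER genes were among them. At 3 h 49 genes were higher (0.353% of the genes tested) and none was lower at an adjusted p under 0.05 by edgeR's quasi-likelihood test. At an unadjusted p under 0.05 the count was 748 in either direction, and DESeq2 also called 0 genes lower. At 6 h 147 were higher (1.06%) and 10 lower (0.072%). Single libraries moved these counts: 9 genes were higher at 3 h without the first DMSO library and 29 without the first NGI-1 library, and 45 were higher at 6 h without the first DMSO library and 37 without the second NGI-1 library. Of the 49 genes higher at 3 h, 29 were also higher at 24 h (59.2% of the list at 3 h and 2.63% of that at 24 h). Of the 147 at 6 h, 77 were (52.4% and 6.97%). Over all genes tested 7.95% were higher at 24 h. ER chaperones gave 10, 14 and 13 of 20 members higher at 3, 6 and 24 h, with medians of 0.60, 0.88 and 0.48.

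HSPA5 was at 4302 and 3723 CPM with NGI-1 against 1404 and 1556 CPM with DMSO at 3 h (1.44 ± 0.14, adjusted p = 7.7e-09). At 6 h it was at 3477 and 4634 CPM with NGI-1 against 1121 and 1421 CPM with DMSO (1.67 ± 0.14, adjusted p = 5e-11). In NGI-1 and in DMSO libraries alike the level was lower at 24 h than at either earlier time. The effect at 24 h minus that at 3 h was -0.48 ± 0.19, adjusted p = 0.14, and it was called only with no filter on low counts (adjusted p = 0.0018) among the settings without a replicate block. PRKCSH, with 347 and 338 CPM with NGI-1 against 317 and 332 CPM with DMSO at 3 h, was not called then (0.08 ± 0.08, adjusted p = 1). Its effect at 24 h minus that at 3 h was 0.64 ± 0.11, adjusted p = 0.00019. CHAC1, an early target of ATF4, had 8.51 and 15.5 CPM with NGI-1 against 3.27 and 7.87 CPM with DMSO at 3 h and 1.16 and 1.97 CPM with NGI-1 against 4.98 and 2.28 CPM with DMSO at 24 h, without a call at either time (1.13 ± 0.42, adjusted p = 0.53 and -1.26 ± 0.64, adjusted p = 0.17). With no filter on low counts both were called, in opposite directions (adjusted p = 0.00023 and 0.0043).

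The effect itself differed between 24 h and 3 h for 320 genes in the upward direction (2.31%) and 360 downward (2.59%), or for 162 and 121 genes without the first DMSO library of 24 h. The counts were 176 and 212 without the first NGI-1 library of 24 h, 178 and 178 without the second DMSO library of 3 h, and 203 and 231 without the first NGI-1 library of 3 h, and 165 genes were downward without the second NGI-1 library of 24 h. Of the 32 NF-kB targets, 18 had an effect at 24 h below that at 3 h. TNF had 5.46 and 8.13 CPM with NGI-1 against 7.76 and 10.7 CPM with DMSO at 3 h (-0.42 ± 0.24, adjusted p = 1). It had 5.93 and 6.81 CPM with NGI-1 against 10.01 and 11.98 CPM with DMSO at 6 h (-0.78 ± 0.24, adjusted p = 0.12), where it was called with DESeq2 (adjusted p = 0.033) and with no filter (0.0065). The difference of its effects was -2.37 ± 0.41, adjusted p = 0.0002. CD79B was at 716 and 743 CPM with NGI-1 against 743 and 824 CPM with DMSO at 3 h (-0.10 ± 0.07, adjusted p = 1), with a difference of 0.96 ± 0.10, adjusted p = 1.7e-08. TTC17 was at 50.4 and 54.02 CPM with NGI-1 against 42.05 and 48.4 CPM with DMSO at 3 h. It had 67.3 and 59.4 CPM with NGI-1 against 49.9 and 44.4 CPM with DMSO at 6 h, where it was called (0.43 ± 0.10, adjusted p = 0.0092; adjusted p = 0.18, 0.22 and 0.051 without the second DMSO, the first NGI-1 and the second NGI-1 library of 6 h). Its difference was 1.5 ± 0.14, adjusted p = 1.6e-09. Of the 30 MYC targets and genes of ribosome biogenesis 15 had an effect at 24 h below that at 3 h, and of the 20 tRNA synthetases 9 did. Of the 20 ER chaperones none had a called difference.

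In TMD8 the same treatment gave 2185 genes higher (15.7%) and 2069 lower (14.9%). Of the genes higher in HBL1, 711 were also higher in TMD8, which is 64.4% of the HBL1 list and 32.5% of the TMD8 list, and of those lower, 1040 were (65.4% and 50.3%). In opposite directions, 7 genes were higher in HBL1 and lower in TMD8 and 34 the reverse. The effect in HBL1 minus that in TMD8 was called above 0 for 100 genes (0.72%) and below 0 for 249 (1.79%). There were 38 to 68 above 0 and 146 to 188 below 0 when 1 of the 8 libraries was left out, the fewest without the first HBL1 NGI-1 library and without the first TMD8 NGI-1 library. No ER chaperone had a larger effect in HBL1 and 3 of 20 had a smaller one, with a median difference of -0.43, against -0.01 over all genes. XBP1, at 129 and 121 CPM with NGI-1 against 45.6 and 45.4 CPM with DMSO in TMD8, rose there as well (1.46 ± 0.13, adjusted p = 3.9e-11), and the effect in HBL1 minus that in TMD8 was -0.89 ± 0.18, adjusted p = 0.0014. For HSPA5 the difference was -0.45 ± 0.19, adjusted p = 0.26, and it was called with no filter on low counts (adjusted p = 0.0099).

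**Figure D4:**
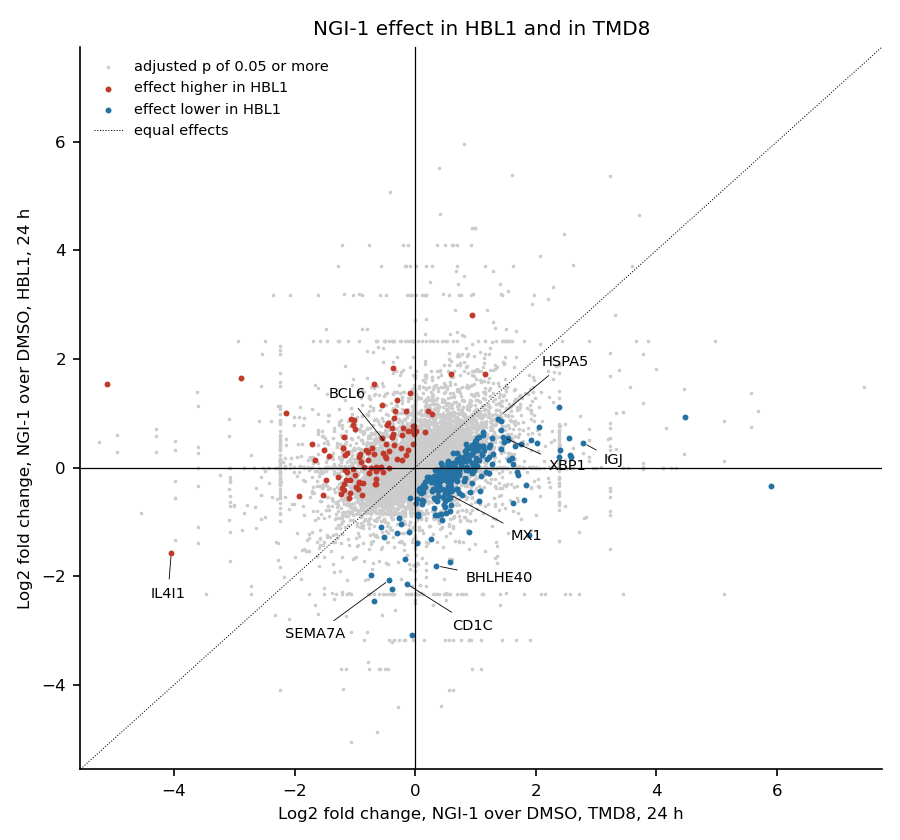
Log2 fold change of NGI-1 over DMSO at 24 h in HBL1 (vertical) against that in TMD8 (horizontal) for every gene tested, with genes whose effects differ between the lines at an adjusted p under 0.05 in colour (higher in HBL1 in red, lower in HBL1 in blue). BHLHE40 lies at -1.81 in HBL1 and 0.35 in TMD8, and IL4I1 lies below 0 in both.

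Several genes that fell in HBL1 did not fall as far, or at all, in TMD8. BHLHE40, a transcriptional repressor of the basic helix-loop-helix family, had 12.6 and 12.6 CPM with NGI-1 against 43.8 and 44.6 CPM with DMSO in HBL1 (-1.81 ± 0.19, adjusted p = 2.9e-09). In TMD8 it had 155 and 140.5 CPM with NGI-1 against 118 and 113 CPM with DMSO (0.35 ± 0.14, adjusted p = 0.045, lost with DESeq2 at 0.052, and when any 1 TMD8 library was left out, with adjusted p = 0.065 to 0.25). The difference was -2.16 ± 0.23, adjusted p = 5e-08. CD1C had 25.7 and 26.1 CPM with NGI-1 against 28.4 and 28.8 CPM with DMSO in TMD8 and was not called there (-0.14 ± 0.17, adjusted p = 0.59), with a difference of -2.0 ± 0.24, adjusted p = 6.7e-07. SEMA7A fell by less in TMD8 (-0.43 ± 0.13, adjusted p = 0.0093; difference -1.64 ± 0.20, adjusted p = 1.4e-06). That fall in TMD8 was not called without the first DMSO library (adjusted p = 0.076) or either NGI-1 library (0.056 and 0.052). CCND2 was not called there (0.05 ± 0.13, adjusted p = 0.81; difference -0.90 ± 0.18, adjusted p = 0.0019). In the opposite sense, IL4I1, a secreted amino acid oxidase, had 38.3 and 39.6 CPM with NGI-1 against 120.4 and 109 CPM with DMSO in HBL1 (-1.56 ± 0.15, adjusted p = 5.7e-10). In TMD8 it had 1.61 and 2.64 CPM with NGI-1 against 25.9 and 44.2 CPM with DMSO (-4.04 ± 0.26, adjusted p = 4.7e-15), with a difference of 2.48 ± 0.33, adjusted p = 4.3e-06.

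Genes of B cell differentiation and of interferon responses also differed between lines. IGJ, the joining chain of secreted immunoglobulin, was at 25.6 and 34.001 CPM with NGI-1 against 24.2 and 18.9 CPM with DMSO in HBL1, where it was not called (0.46 ± 0.18, adjusted p = 0.075), but was with no filter (adjusted p = 0.011) or without the first NGI-1 library (0.037). It rose in TMD8 (2.79 ± 0.26, adjusted p = 7.2e-11; difference -2.33 ± 0.33, adjusted p = 1.1e-05). BCL6 rose in HBL1 and fell in TMD8 (-0.47 ± 0.15, adjusted p = 0.012; adjusted p = 0.12 without the first TMD8 DMSO library and 0.16 without the first TMD8 NGI-1 library), with a difference of 0.91 ± 0.19, adjusted p = 0.002. CD79B rose in both lines, by less in HBL1 (difference -0.58 ± 0.10, adjusted p = 0.00036). Of 23 interferon-stimulated genes, 3 were higher and 6 lower in HBL1 (median -0.25), 15 were higher and none lower in TMD8 (median 0.53), and 10 had a smaller effect in HBL1 by the test of the difference. In HBL1 the count of lower members was 1 to 3 when the first DMSO, the second DMSO or the first NGI-1 library was left out. MX1, an antiviral GTPase, had 119 and 122 CPM with NGI-1 against 167 and 170.0 CPM with DMSO in HBL1 (-0.48 ± 0.11, adjusted p = 0.0019). In TMD8 it had 387 and 347 CPM with NGI-1 against 268 and 233 CPM with DMSO (0.55 ± 0.11, adjusted p = 0.00013), with a difference of -1.04 ± 0.16, adjusted p = 4.6e-05. OAS1, which senses double-stranded RNA, rose in both lines, with 129.6 and 119 CPM with NGI-1 against 65.6 and 67.2 CPM with DMSO in HBL1 (0.91 ± 0.09, adjusted p = 3.7e-09).

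Set directly against the kinase inhibitors at 24 h in HBL1, each at its own dose, NGI-1 gave 213 genes higher (1.53%) and 229 lower (1.65%) than acalabrutinib, and 370 higher (2.67%) and 323 lower (2.33%) than copanlisib. When any 1 of the 4 libraries of a comparison was left out, 62 to 118 genes were higher and 89 to 153 lower than with acalabrutinib, and 155 to 237 higher and 133 to 201 lower than with copanlisib. ER chaperones were higher with NGI-1 in 11 of 20 cases in either comparison and lower in none. HSPA5 stood at 1402 and 1367 CPM with NGI-1, against 630.4 and 669 CPM with acalabrutinib and 506 and 559 CPM with copanlisib (1.09 ± 0.14, adjusted p = 8.3e-07 and 1.38 ± 0.14, adjusted p = 6.5e-09). All 4 libraries of the kinase inhibitors lay below both DMSO libraries for this gene. TTC17 was at 119 and 114 CPM with NGI-1, against 42.9 and 40.9 CPM with acalabrutinib and 44.5 and 47.1 CPM with copanlisib (1.48 ± 0.09, adjusted p = 1.9e-14 and 1.35 ± 0.09, adjusted p = 2.8e-13). XBP1, with 375 and 395 CPM with NGI-1 against 379.6 and 356 CPM with acalabrutinib and 391 and 374 CPM with copanlisib, was not called in either (0.07 ± 0.12, adjusted p = 0.89 and 0.01 ± 0.12, adjusted p = 1). All 6 of these libraries lay above both DMSO libraries.

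**Figure D5:**
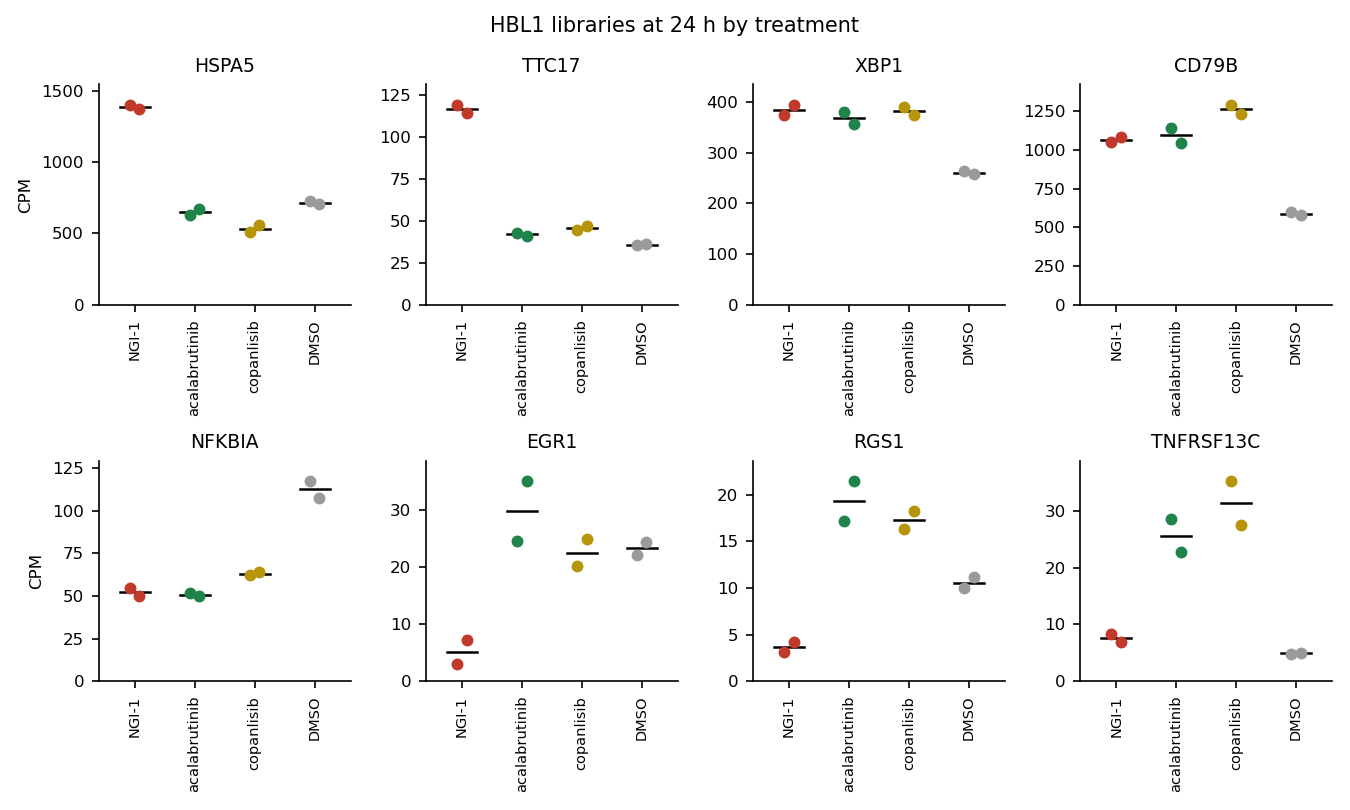
CPM of 8 genes in each HBL1 library at 24 h, with NGI-1, acalabrutinib, copanlisib and DMSO from left to right and a bar at the mean of each pair. HSPA5 and TTC17 are highest with NGI-1, and XBP1 and CD79B are above DMSO with all 3 compounds.

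CD79B had 1054 and 1082 CPM with NGI-1, against 1146 and 1049 CPM with acalabrutinib and 1295 and 1234 CPM with copanlisib. It was not called against acalabrutinib (-0.04 ± 0.07, adjusted p = 0.89) and was lower than with copanlisib (-0.24 ± 0.07, adjusted p = 0.034), a call lost when any 1 of these 4 libraries was left out (adjusted p = 0.079 to 0.26). NFKBIA was at 54.5 and 49.7 CPM with NGI-1, against 51.5 and 49.7 CPM with acalabrutinib and 62.1 and 64.1 CPM with copanlisib, with no call (0.04 ± 0.15, adjusted p = 0.96 and -0.27 ± 0.15, adjusted p = 0.37). Over the 32 NF-kB targets the median difference was 0.04 against acalabrutinib and -0.06 against copanlisib, each beside 0.01 over all genes. Against acalabrutinib 1 of the 32 was higher and 3 were lower, beside 1.53% and 1.65% of all genes. Against copanlisib 1 was higher and 4 were lower, beside 2.67% and 2.33% of all genes. A difference that missed the threshold does not show that the compounds act alike.

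Immediate early genes were lower with NGI-1 than with acalabrutinib in 8 of 23 cases, lower than with copanlisib in 5 and higher in none. EGR1 had 3.05 and 7.17 CPM with NGI-1, against 24.7 and 35.2 CPM with acalabrutinib and 20.2 and 25.03 CPM with copanlisib (-2.57 ± 0.53, adjusted p = 0.0021 and -2.16 ± 0.54, adjusted p = 0.01). Without the first NGI-1 library the adjusted p was 0.13 against acalabrutinib and 0.25 against copanlisib, and without the second copanlisib library it was 0.082. RGS1 had 3.16 and 4.16 CPM with NGI-1, against 17.2 and 21.5 CPM with acalabrutinib and 16.3 and 18.2 CPM with copanlisib (-2.41 ± 0.32, adjusted p = 1.9e-06 and -2.24 ± 0.32, adjusted p = 6.6e-06). With NGI-1 both genes lay below all libraries of DMSO and of the kinase inhibitors. TNFRSF13C, the receptor for the B cell survival factor BAFF, had 8.31 and 6.94 CPM with NGI-1, against 28.5 and 22.7 CPM with acalabrutinib and 35.2 and 27.4 CPM with copanlisib (-1.74 ± 0.21, adjusted p = 5.5e-07 and -2.04 ± 0.21, adjusted p = 6.6e-09). Against DMSO, at 4.78 and 5.05 CPM, it was not called (0.64 ± 0.27, adjusted p = 0.092), but was with no filter (adjusted p = 0.031). Mitosis genes were higher with NGI-1 than with copanlisib in 22 of 25 cases (median 0.46) and than with acalabrutinib in 6 (median 0.29).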

How the data were processed

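Gene counts of 48 RNA-seq libraries were used, 2 for each of 24 groups of cell line, treatment and time. They were deposited by the authors as raw read counts per gene, counted with HTSeq on genome build hg19, per the submitters' processing notes. The aligner, the annotation, the versions and the use of strand are not given in the sources used here, so reads of overlapping or antisense genes cannot be told apart. The table held 25066 genes and between 7165377 and 11999050 reads a library. Of these genes 3449 had no identifier and took 0.815% of the reads, and 27 symbols turned into dates were restored through their gene identifiers.

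From these counts, genes were kept with edgeR's filterByExpr by group, scaled by TMM and tested with edgeR 4.0.16 (R 4.3.3) in a quasi-likelihood fit of all 48 libraries with 1 mean per group and 24 residual degrees of freedom. All 13881 genes kept were tested in each comparison, with Benjamini-Hochberg adjustment, and a gene was called, and said to rise, fall or change, at an adjusted p under 0.05. Log2 fold changes carry standard errors and a prior count of 2 entered the mean log2 CPM. CPM values (reads scaled to a common library size, after TMM; sums of marker lists without it) are not corrected for gene length and do not compare genes with each other. Tested on simulated data for the 24 h comparison in HBL1 (13881 genes), the fit recovered 91% of 100 genes changed by 1 on the log2 scale. It recovered 57% of 100 changed by 0.5 and called 4 unchanged genes. Every simulated gene was given the same spread (dispersion 0.0054), and the changed genes had a mean of at least 2 CPM with DMSO. These shares may therefore not hold for the real genes.

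The members and the gene lists were chosen with earlier results of these data known. The lists share members, so their counts are not independent. Among the genes in more than 1 list are CALR, CANX, PDIA3, DNAJC3, HSP90B1, XBP1, DERL3, POU2AF1, IRF4, MYC, LDHA and CAD. Genes were named as the 12 highest and 12 lowest called genes whose mean log2 CPM was 1 or more and whose groups did not overlap, as up to 4 called members per list and direction, as members of a short list of sensors and targets, and as the 5 highest and 5 lowest called genes of each other comparison. The following were named after their values were seen: ATF6, CDKN1A, CHAC1, EDEM1, EIF2AK3, ERN1, ERO1L, GANAB, HERPUD1, HYOU1, MCL1, MKI67, NFKB1, NFKBIA, P4HB, PDIA6, REL, RELB, SEC61A1, SERP1, UGCGL1 and UGCGL2, and the genes listed for a promoter element. Alternatives were RLE size factors, no filter, a filter that asked for a CPM of 1 in 2 or more libraries, DESeq2 1.42.0, a fit of 1 line alone, a block for the replicate number, leaving out 1 library at a time, and a robust spread estimate chosen after seeing the data. Promoter sequences came from RefSeq (GRCh38.p14), matched by gene identifier.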

Additional observations from a re-analysis of the deposited data

Results flagged for a closer look

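Effects of NGI-1 that differed between the lines at 24 h, by edgeR's quasi-likelihood test of the difference (log2 fold change in HBL1 minus that in TMD8, Benjamini-Hochberg adjusted p under 0.05), were found for 10 of the genes described. They were lower in HBL1 for IGJ (-2.33), BHLHE40 (-2.16), CD1C (-2.0), SEMA7A (-1.64), MX1 (-1.04), CCND2 (-0.90), XBP1 (-0.89) and CD79B (-0.58), and higher in HBL1 for IL4I1 (2.48) and BCL6 (0.91). IL4I1 fell in both lines, so its value marks a smaller fall in HBL1.

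Effects that differed between 24 h and 3 h in HBL1, by the same test, were found for 4 of the genes described. They were higher at 24 h for TTC17 (1.5), CD79B (0.96) and PRKCSH (0.64) and lower at 24 h for TNF (-2.37). What sets these differences was not tested.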

How the results depend on the processing

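Of the 159 called gene values in the text, 131 kept their call under every alternative, 28 lost it when at least 1 library was left out, and 6 of these lost it under another alternative as well. None changed direction. Leaving out 1 library lowered most counts: NGI-1 over DMSO at 24 h in HBL1 gave 596 to 848 genes higher and 757 to 1342 lower, 3 h gave 9 to 46 and 0 to 3, 6 h gave 37 to 183 and 3 to 9, the effect at 24 h minus 3 h gave 162 to 298 and 121 to 361, TMD8 gave 1535 to 1617 and 1435 to 1624, HBL1 minus TMD8 gave 38 to 68 and 146 to 188, acalabrutinib gave 62 to 118 and 89 to 153, and copanlisib gave 155 to 237 and 133 to 201. Such a fit has fewer samples, and the lone library of its group is assumed to vary like the other groups.

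With no filter on low counts, 97 genes were higher and 4 lower at 3 h, 40 were lower at 6 h, and 173 had a higher effect in HBL1 than in TMD8. A fit of HBL1 alone gave 23 genes higher at 3 h, and 26 genes were lower at 6 h with DESeq2 and 28 with the stricter filter. A fit of 1 line was not run where a comparison spans both lines. Another scaling moved the median of all genes by at most 0.02 on the log2 scale. The cause of these moves was not tested.

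The replicate number within each line and time, taken as a block, raised the counts: 1882 genes higher and 2452 lower at 24 h in HBL1, 218 and 74 at 3 h, 485 and 300 at 6 h, 921 and 1358 for 24 h minus 3 h, 499 and 774 for HBL1 minus TMD8, 758 and 622 against acalabrutinib, and 1070 and 847 against copanlisib. It gave a call to 16 gene values of the text that had none: ATF4, CHAC1, ERO1L, HERPUD1, IGJ, NFKB1, P4HB, RELB, SEC61A1, STT3A and TNFRSF13C at 24 h, CHAC1 at 3 h, TNF at 6 h, NFKBIA against copanlisib, and HSPA5 at 24 h minus 3 h (adjusted p = 4e-06) and in HBL1 minus TMD8 (3e-05). With it, 20 of 30 mRNAs of cytosolic ribosomal proteins were higher, against 6. Differences of library 1 minus library 2 correlated across genes between the NGI-1 and DMSO groups at 0.182, and at 0.125 to 0.182 over pairs of the 4 HBL1 groups at 24 h. The labels give the replicates only a number, so the unblocked fit is the one reported. With 2 libraries a group and these depths, a gene that was not called may still have changed by a small amount.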
